A study of Mus musculus with 2 samples.

Results

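The NF-κB transcription factors and the IκB proteins that hold them back are encoded by a small set of genes, of which 10 were taken here: the subunit genes Rela, Relb, Rel, Nfkb1 and Nfkb2, and the inhibitor genes Nfkbia, Nfkbib, Nfkbie, Nfkbiz and Bcl3. They were chosen by the gene name of the probe in the scanner output, and are 10 of the 31709 genes named on the array. Their RNA was measured in Ba/F3, a pro-B line of the mouse that depends on interleukin-3, here called parental, and in BaF/3 (#BEB1). BaF/3 (#BEB1) is 1 clone that binds Ecrg4, isolated by repeated sorting of Ba/F3 cells carrying a retroviral cDNA library from CG4 cells, so clonal selection and the library insert both separate it from its control. Both lines were cultured with serum and IL-3, and neither label names a further treatment, knockout or time point. Each line was read on 1 Agilent 1-colour whole mouse genome array, so differences between the lines carry no replicate error and were not tested.

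In resting cells, NF-κB dimers are kept in the cytoplasm by IκB proteins. Phosphorylation by the IκB kinase complex marks IκB for destruction, the dimer enters the nucleus and binds κB sites, and among the genes it switches on are those of its own inhibitors, so that the response limits itself. A separate branch, through the kinase encoded by Map3k14, processes the p100 precursor and releases dimers that contain RelB. In B-lineage cells and in myeloid cells both branches act on survival and cytokine genes.

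The assignment of the arrays to the cell lines is not settled. Over 39429 probes, the parental column of the authors' table correlated at 0.999998 (Pearson) with the scanner signal labelled BaF/3 (#BEB1) and at 0.982285 with the one labelled parental, and the other column was crossed in the same way (0.999996 and 0.982286). Probes are not replicates, so these values only match files to each other. Array A is here the one that the table names BaF/3 (#BEB1) and the scanner output names parental, and array B has the reverse labels. Each difference is a log2 value of array A less that of array B, which means BaF/3 (#BEB1) less parental if the table is right and parental less BaF/3 (#BEB1) if the scanner output is. Olr1, the gene the study cloned from a library of BaF/3 (#BEB1) RNA, had scaled values of 3.11 (array A) and −1.90 (array B) and differed by 5.01. The array on which it was brighter is the one that the table names BaF/3 (#BEB1), the clone it was cloned from, so the table's labels are the likelier ones by the study's design, but the files alone do not settle them.

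Signals were divided by the 75th percentile of their array, 1506 for array A and 1080 for array B, and 49.4% and 49.9% of the probes were well above background. A gene counted as measured where a probe passed this mark on both arrays, which held for 14815 genes. Brighter by 2-fold or more were 570 genes on array A and 1082 on array B (34.5% of such genes on array A). Median scaling gave 1313 and 587 (69.1%), as it raises every difference by 0.29. Of 15 listed genes of a pro-B line grown in IL-3 with a probe, 6 were well above background on both arrays. Among them the IL-3 receptor chain genes were at 3.59 and 3.18 (Il3ra) and at 3.22 and 5.08 (Csf2rb) on arrays A and B, while the B-lineage markers Cd79a, Pax5, Ebf1 and Rag1 did not pass the background mark on either. Of those that passed on both, Cd79b was at −1.85 (array A) and 0.45 (array B) and Vpreb1 at −4.57 and −3.18, with differences of −2.30 and −1.39.

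The 10 genes were read by 14 probes of 60 bases, each printed at 1 spot. None of these spots was saturated or marked as an outlier, and 12 of the 14 probes were well above background on both arrays. Shown 5′ to 3′ in lower case are the probe of Nfkbia, of Nfkbiz and of Nfkb2, one probe of Nfkb1 and a pair of Nfkbib probes, since what they bind decides which RNA was read. No capitals are used, because no base was set apart in the design.
Nfkbia, A_51_P295192: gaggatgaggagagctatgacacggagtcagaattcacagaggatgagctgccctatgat
Nfkbiz, A_55_P2039086: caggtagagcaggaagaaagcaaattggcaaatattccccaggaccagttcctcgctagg
Nfkb1, A_55_P1968743: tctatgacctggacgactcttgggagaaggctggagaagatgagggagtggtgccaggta
Nfkb2, A_51_P454217: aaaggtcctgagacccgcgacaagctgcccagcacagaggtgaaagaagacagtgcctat
Nfkbib, A_55_P1989733: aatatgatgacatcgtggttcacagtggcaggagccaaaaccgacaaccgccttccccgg
Nfkbib, A_66_P120882: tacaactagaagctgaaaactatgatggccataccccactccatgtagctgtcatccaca

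In mm9, the build of the scanner output, the Nfkbia probe was placed at chr12:56590945-56591440 on the minus strand, the Nfkbiz probe at chr16:55817859-55817918 on the minus strand, the Nfkb1 probe at chr3:135254550-135254609 on the minus strand and the Nfkb2 probe at chr19:46386146-46386285 on the plus strand. The first Nfkbib probe lies at chr7:29544160-29544219 and the second at chr7:29545252-29546647, both on the minus strand. The placements of the Nfkbia, Nfkb2 and second Nfkbib probes span 496, 140 and 1396 bases, more than the 60 bases of a probe, so these probes are split over separate blocks of the genome. An mm9 gene annotation was not used here, so positions relative to exons, introns and UTRs are not given.

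The genes of most measured inhibitors and of RelB were brighter on array A, while that of RelA differed little. Among the 8 measured genes, 3 were at least 2-fold brighter on array A (Nfkbiz, Nfkbia and Relb), where 3.85% of all measured genes were, and 0 were at least 2-fold brighter on array B, where 7.3% of all measured genes were. The differences of 6 of the 8 lay above 0 (Rela joins them with median scaling, and Nfkb1 leaves them with its brightest probe), compared with 7211 of the 14815 genes. Their median was 0.71, beside −0.02 over all measured genes. Rel and Bcl3, the remaining pair, passed the background mark on neither array. Since each array read bulk RNA, fewer cells expressing a gene and less RNA per cell cannot be told apart.

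**Figure D1:**
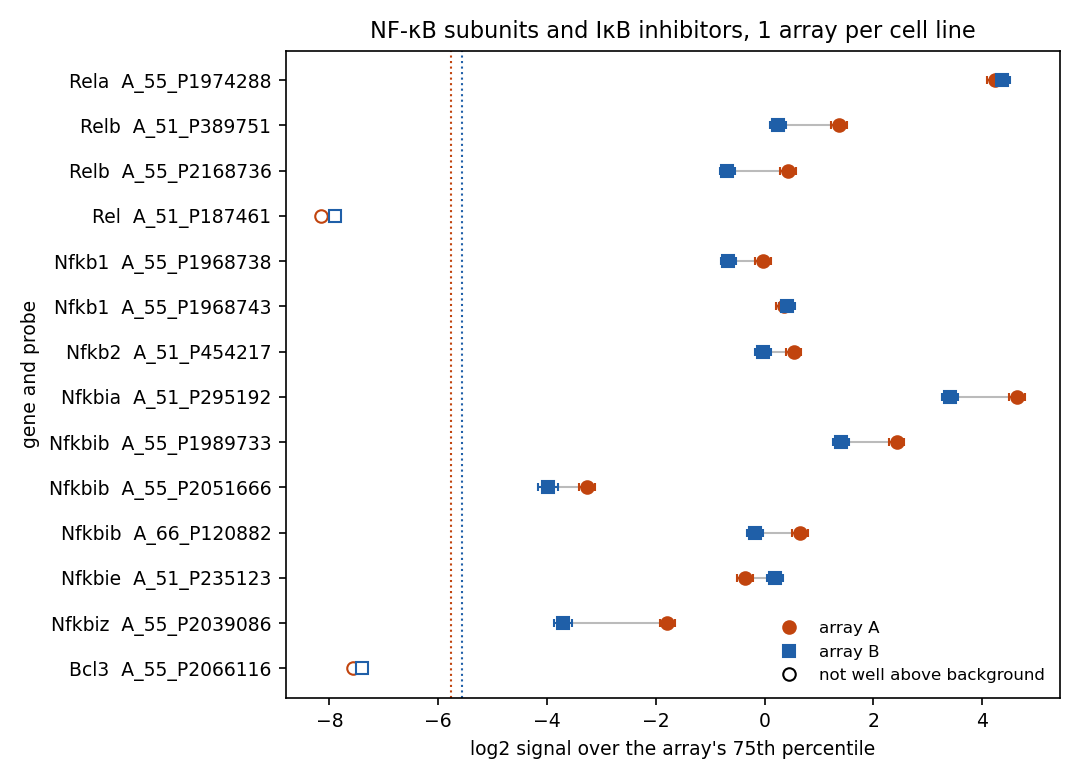
Scaled log2 signal, relative to the array's 75th percentile (horizontal axis), for each of the 14 probes (vertical axis), with array A as circles and array B as squares and 1 spot per point. Bars are the scanner software's own error of a spot, open symbols are not well above background, and dotted lines mark the lowest signal well above background on each array; Rel and Bcl3 lie left of these lines, and the widest gap is that of Nfkbiz, from −1.79 to −3.70.

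Rela encodes p65, which carries the transactivation domain of the most common NF-κB dimer. Its probe gave a signal of 28236 on array A and 22308 on array B, which is 4.23 and 4.37 after scaling. The arrays were thus close, with a difference of −0.14 that turned to 0.15 with median scaling. The scanner software's error for this difference was 0.20, larger than the difference itself, and 41.0% of all measured genes had a lower value. For the brighter probes this error was close to 10% of the signal on either array, so it hardly varied between them. Multiples of the error thus mostly restate the size of a difference. Probes printed at 10 spots gave a smaller SD of a difference, 0.08, which is below the difference of Rela.

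Relb encodes the subunit that pairs mainly with p52, the processed product of p100. Its first probe gave 3886 on array A against 1285 on array B, and its second probe 2037 against 673. Both probes were brighter on array A and by nearly the same amount, 1.12 each. Their placements, chr7:20191722-20191781 and chr7:20191773-20191832 on the minus strand, share only a short stretch at one end. They are thus largely separate but not fully independent readings of the transcript. As a gene, Relb was at 0.90 on array A and −0.22 on array B, a 2.17-fold difference, and 97.2% of measured genes had a lower value.

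Rel encodes c-Rel, a subunit prominent in mature lymphocytes. Its signals of 5.29 (array A) and 4.51 (array B) lay below the lowest signals well above background of 27.6 and 22.9. No difference can therefore be given for it. The scanner output places 15 bases of this probe, at chr11:23641729-23641743, so its match to the transcript is known less well than that of the other probes.

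Nfkb1 encodes p105, the precursor of p50. The probe printed above gave 1934 on array A and 1435 on array B, a difference of −0.05 after scaling, while the second probe, at chr3:135247621-135247680, gave 1474 and 681, a difference of 0.63. The probes of this gene did not read it alike, and the second was the only one of them to differ by more than the 0.20 error of a spot pair. Their range of 0.68 was wider than that of 84.6% of the 3152 genes with several measured probes, for which the median range was 0.27. The mean of both, 0.29 (1.22-fold), thus rests on the second probe.

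Nfkb2 encodes p100, which acts as an inhibitor until it is processed to p52. Its probe gave 2178 on array A and 1063 on array B, which is 0.53 and −0.02 after scaling. The difference of 0.56 (1.47-fold) was 2.72 times the scanner software's error and fell short of 2-fold, and 86.1% of measured genes had a lower value.

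Nfkbia encodes IκBα, the inhibitor that is destroyed and remade fastest in a response. Its probe gave 37425 on array A and 11438 on array B, which is 4.64 and 3.40 after scaling. It was brighter on array A by 1.23 (2.35-fold), and 97.97% of measured genes had a lower value. The difference was 6.03 times the scanner software's error of 0.20, and it ranged from 1.12 to 1.52 over 11 other ways of processing the arrays. As the gene has 1 probe, the filters on dim probes and the probe summaries among these could not move it.

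Nfkbib encodes IκBβ, a second cytoplasmic inhibitor. Its probes gave 8093, 2366 and 157 on array A and 2849, 952 and 68.3 on array B. All 3 were brighter on array A, with differences of 1.03, 0.83 and 0.72 and a range between probes of 0.31. The gene's mean of 0.86 (1.81-fold) fell short of 2-fold, and passed it with median scaling (1.15) or with the brightest probe alone (1.03).

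Nfkbie encodes IκBε, the third cytoplasmic inhibitor. Its probe gave 1179 on array A and 1232 on array B, which is −0.35 and 0.19 after scaling, and its genomic placement is chr17:45700000-45700059 on the plus strand. It was the only inhibitor of the 4 measured whose value was lower on array A, with a difference of −0.54, or 1.46-fold brighter on array B. The difference was 2.66 times the scanner software's error, and 19.1% of measured genes had a lower value. The difference stayed below 0 under all 11 other settings (−0.63 to −0.25), of which the filters and probe summaries cannot move a gene with 1 probe.

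Nfkbiz encodes IκBζ, a nuclear member of the family that binds p50 dimers and is needed for part of the secondary response, including that of Il6. Its probe gave 437 on array A and 82.9 on array B, which is −1.79 and −3.70 after scaling. This was the widest difference of the set, 1.92 (3.78-fold), with 99.4% of measured genes lower. Both signals were well above background, but that of array B was not far above the lowest such signal there, 22.9, and normexp background correction brought the difference to 1.24. Bcl3 encodes the other nuclear IκB taken here, which binds p50 and p52 dimers. Its signals of 7.92 (array A) and 6.38 (array B) did not pass the background mark.

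**Figure D2:**
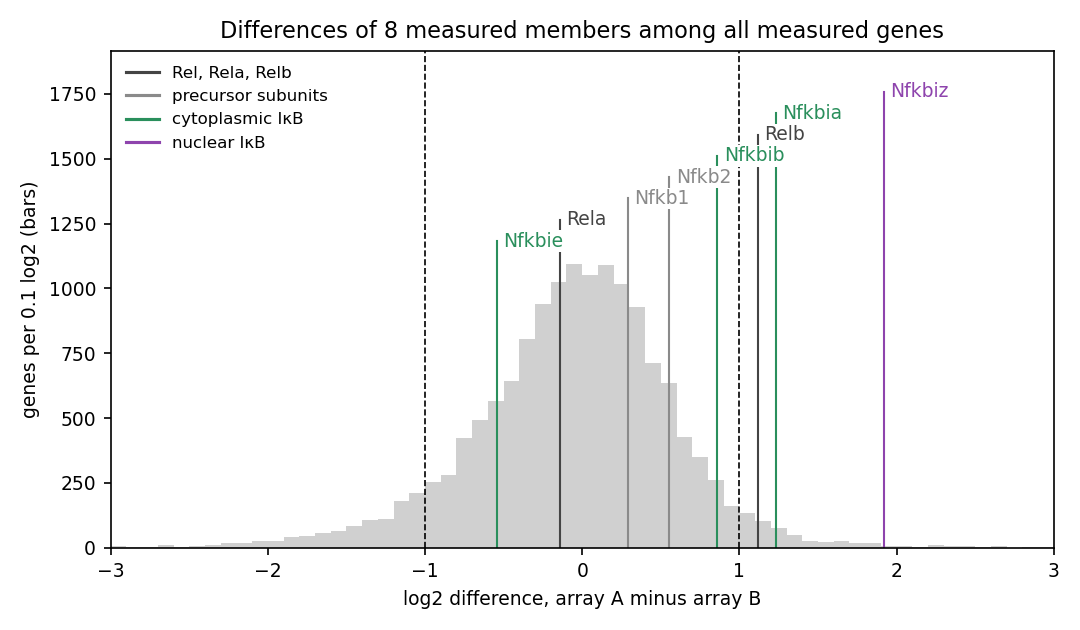
Number of genes per 0.1 log2 (vertical axis) against the log2 difference, array A minus array B (horizontal axis), for the measured genes (grey bars, shown from −3 to 3), with lines for the 8 measured NF-κB and IκB genes coloured by role and dashed lines at 2-fold. Nfkbiz (1.92), Nfkbia (1.23) and Relb (1.12) lie past 2-fold on array A, and Nfkbie (−0.54) and Rela (−0.14, but 0.15 with median scaling) lie below 0; line height has no meaning.

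Differences between genes are not moved by a single scaling factor for each array, so each gene was also set against Rela. Less the difference of Rela, Nfkbiz was at 2.06, Nfkbia at 1.37, Relb at 1.26 and Nfkbib at 0.999. The signals of these 4 genes and that of Rela thus differed unequally between the arrays, with 4.16-fold between Nfkbiz and Rela. With 1 array per line, this was not tested as a difference between the lines. Over the 11 other settings, the value of Nfkbia less Rela lay between 1.31 and 1.37 and that of Relb between 1.16 and 1.34. Nfkbiz ranged from 1.34 to 2.33 and Nfkbib from 0.86 to 1.17. For genes with 1 probe, such as Nfkbia and Rela, only quantile scaling, normexp and the authors' table could move this value. A narrow range is therefore no measure of its precision. Nfkb2 was at 0.69 (0.59 to 0.78), Nfkb1 at 0.43 (0.09 to 0.52) and Nfkbie at −0.40 (−0.44 to −0.30) on the same measure. The scanner software's error for these values lay between 0.24 and 0.30, and it covers the spots only, not the differences between cultures.

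**Figure D3:**
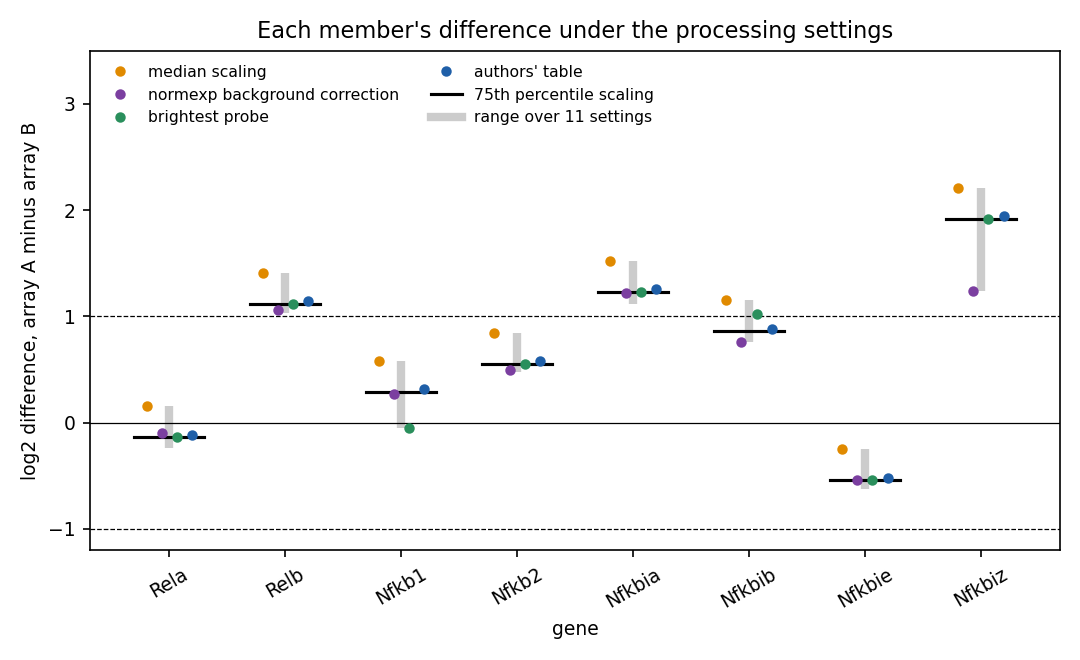
Log2 difference, array A minus array B (vertical axis), of the 8 measured genes (horizontal axis), with the value from 75th percentile scaling as a black bar, 4 other settings as points and the range over 11 settings in grey. Relb, Nfkbia and Nfkbiz stay above the dashed 2-fold line at 1 in every setting, and Nfkbie stays below 0. Rela crosses 0 with median scaling (0.15), and Nfkb1 does with the brightest probe (−0.05). Filters and probe summaries cannot move genes with 1 probe, which include Rela, Nfkbia, Nfkbie and Nfkbiz.

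NF-κB binds a 10-base κB motif, and the genes of its inhibitors are known targets, so the promoter windows of the set were searched for that motif by its usual consensus. The consensus is 3 G, a purine, any 2 bases, 2 pyrimidines and 2 C, read on both strands, and overlapping matches were kept as separate matches. RefSeq promoter windows on GRCm38.p6, from 250 bases before the transcript start to 50 after it, were given for 7 of the 10 genes, and those of Nfkb1, Relb and Nfkbiz were not among them. Of the 7 genes, 5 had a match (Nfkb2, Rel, Nfkbia, Nfkbie and Bcl3), and Rela and Nfkbib had none. Over all promoters, 2779 of 32851 windows (8.46%) and 2581 of 27025 genes (9.55%) had one. Matches were found for Nfkbia (1.23), Nfkb2 (0.56), Nfkbie (−0.54) and the unmeasured Rel and Bcl3, and none for Nfkbib (0.86) and Rela (−0.14). Of the genes at least 2-fold apart, only Nfkbia had a window, so these windows cannot relate a match to a difference. A match is a description of the letters and not a site shown to be bound.

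The stretches before the transcript start are shown 5′ to 3′ in the direction of the gene, with every base of a match in capitals, because they let the inhibitor and subunit genes be compared by the place of the motif. The Nfkbia stretch is chr12:55492648-55492897 on the minus strand, and the Nfkb2 stretch, of its first listed start, is chr19:46304673-46304736 on the plus strand. The Rel stretch is chr11:23771026-23771086 on the minus strand, and the Nfkbie stretch is chr17:45555569-45555628 on the plus strand.
Nfkbia: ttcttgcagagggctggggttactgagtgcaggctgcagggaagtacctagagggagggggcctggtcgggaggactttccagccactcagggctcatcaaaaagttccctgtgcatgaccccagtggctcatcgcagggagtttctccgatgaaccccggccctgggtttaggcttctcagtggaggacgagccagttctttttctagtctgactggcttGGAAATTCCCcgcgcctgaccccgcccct
Nfkb2: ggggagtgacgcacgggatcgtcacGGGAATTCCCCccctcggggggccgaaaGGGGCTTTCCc
Rel: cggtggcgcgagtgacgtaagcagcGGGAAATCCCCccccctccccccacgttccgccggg
Nfkbie: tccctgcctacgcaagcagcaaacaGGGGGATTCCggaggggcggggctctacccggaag

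In Nfkbia the match GGAAATTCCC lay from −29 to −20 relative to the start, on the reverse strand. In Nfkb2 a pair of overlapping matches ran from −39 to −29 and a further match from −11 to −2, and other starts of the gene had matches from −236 to −227 and from −225 to −216, the last of which is also counted after the second start. In Rel overlapping matches ran from −92 to −82, and in Nfkbie the match GGGGGATTCC lay from −106 to −97. The match of Bcl3, GGGAAGTCCC, lay just past the start, from 3 to 12. Windows with 2 or more matches made up 1.22% of all windows, and those of Rel and of the first and second Nfkb2 start were among them.

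**Figure D4:**
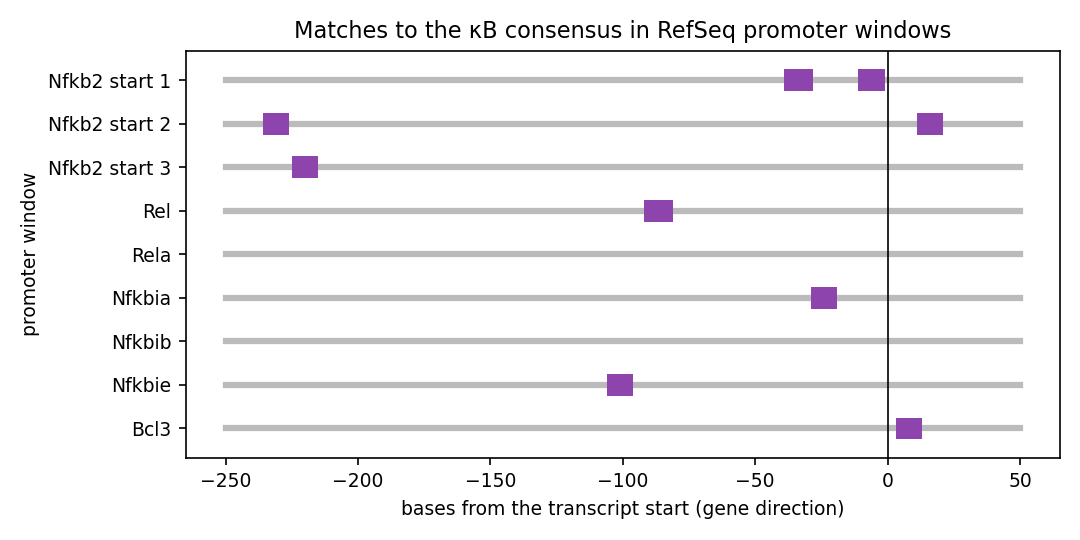
Position of matches to the κB consensus (purple) in bases from the transcript start (horizontal axis) within the RefSeq promoter windows of 7 genes (vertical axis, 3 starts for Nfkb2). Nfkbia, Rel, Nfkbie and Nfkb2 have matches before the start, Bcl3 has its match from 3 to 12, and Rela and Nfkbib have none in these windows.

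Other genes of the pathway were followed in 5 lists with 105 genes, of which 93 were measured. Of these, 9 were brighter by 2-fold or more on array A, where 3.85% of all measured genes were, and 5 on array B, where 7.3% were. Their median was 0.01. The rest of the pathway was thus centred close to all measured genes (−0.02).

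The list of IκB kinases and upstream kinases had 17 genes, all measured, with a median of 0.21. It also holds partners that are not kinases, namely Ikbkg, Tab1, Tab2, Tab3, Tank, Azi2 and Cdc37. The genes of the IκB kinase complex were close on the arrays. Chuk (IKKα) was at 3.33 and 3.19, Ikbkb (IKKβ) at 0.24 and 0.03, and the regulatory subunit Ikbkg (NEMO) at −1.86 and −1.73 on arrays A and B. Their differences were 0.14, 0.21 and −0.13, and that of Ikbkg turned to 0.16 with median scaling. Map3k14, the kinase of the branch that processes p100, differed by 0.67, the mean of probes that did not read alike (1.19 and 0.14). Ripk2, a kinase that signals from NOD receptors, was 2.28-fold brighter on array A (1.19, and 0.53 with normexp), and Ikbke, an IKK-related kinase of the interferon response, was 2.16-fold brighter on array B (−1.11, and −0.74 with normexp).

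Of 24 genes listed as adaptors and ubiquitin ligases, 23 were measured, with a median of −0.05. This list also holds the Irak1, Irak2 and Irak4 genes and the protease gene Malt1. Traf1, a TNF receptor adaptor whose gene is a known NF-κB target, was at 2.25 on array A and −0.03 on array B. It was the only gene of this list at least 2-fold apart with 75th percentile scaling, by 2.28 (4.86-fold). Among 14 measured cofactors that act in the nucleus, 0 were at least 2-fold apart in either direction, with a median of −0.02. Of all measured genes, 3.85% were at least 2-fold brighter on array A and 7.3% on array B. In lists this short, both counts lie near those shares.

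Of 18 negative regulators and other IκB-like genes, 17 were measured, with a median of 0.06. Tnfaip3, which encodes the ubiquitin-editing inhibitor A20, was at −2.25 and −3.70 on arrays A and B, a difference of 1.44 that was 0.73 with normexp. Nfkbid, a further nuclear IκB gene, was at 1.92 and 0.81, a difference of 1.11. Both were brighter on array A. Tnip3, an A20-binding inhibitor, passed the background mark at 1 of 2 probes and on array A alone, with a bound of at least 3.79-fold there (a log2 difference of 1.18 for this probe with normexp). Its other probe was below that mark on both arrays and differed by −0.31. Irak3, which inhibits signalling from Toll-like receptors, was 3.77-fold brighter on array B (−1.91), and the inhibitory receptor gene Sigirr 2.21-fold (−1.15, and −0.86 with median scaling). Inhibitors of the pathway were thus found on both sides.

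Of 32 target genes, 22 were measured, with a median of 0.01. At least 2-fold brighter on array A were 5 of them, and 2 on array B, again beside 3.85% and 7.3% of all measured genes. The chemokine gene Ccl4 was at 2.73 (array A) and −1.85 (array B), and Ccl3 at 2.77 and −1.66. The cytokine gene Il6 was at 5.13 and 1.84. These were the widest differences of the list, at 4.59, 4.43 and 3.29. Lta and Tnf, which encode lymphotoxin-α and tumour necrosis factor, differed by 1.62 and 1.503, and Lta by 0.91 with normexp. Cxcl2, above the background mark on array A alone, had a bound of at least 2.71-fold (0.15 on the log2 scale with normexp). Ccl5, a chemokine gene, was 2.53-fold brighter on array B (−1.34), as was the growth arrest gene Gadd45b by 2.17-fold (−1.12, and −0.83 with median scaling). The other 9 targets passed the background mark on neither array.

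**Figure D5:**
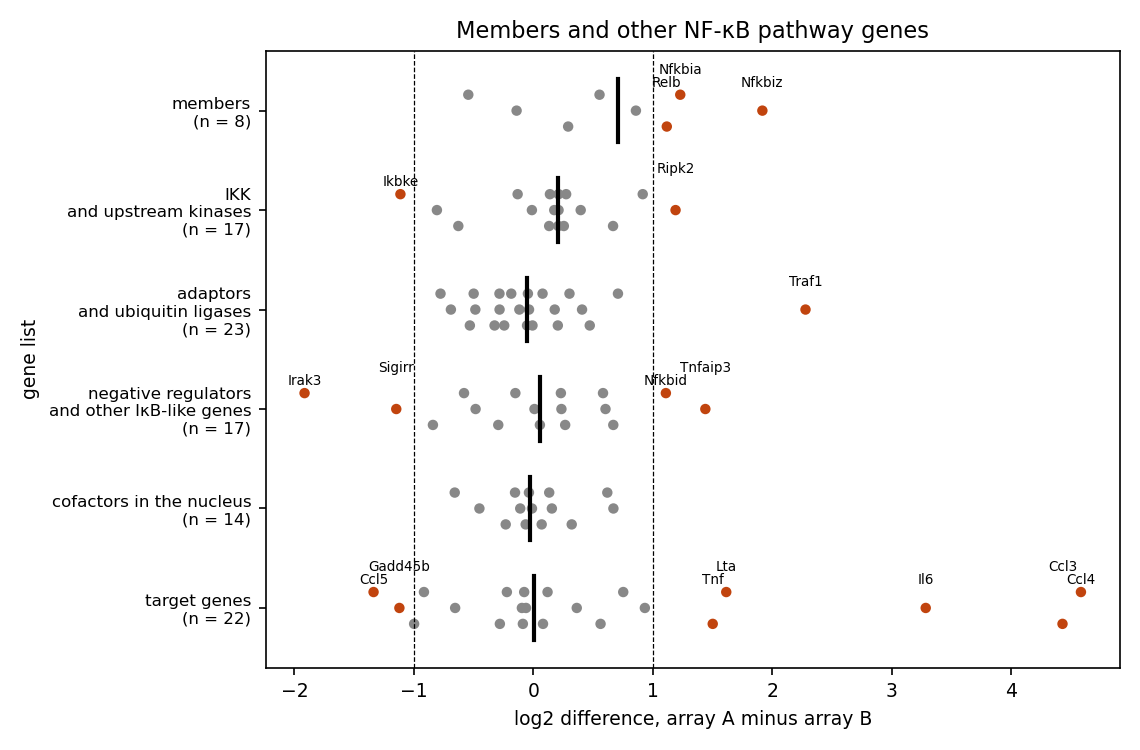
Log2 difference, array A minus array B (horizontal axis), of the 8 measured NF-κB and IκB genes and of the measured genes in 5 other pathway lists (vertical axis), 1 point per gene, with the median as a black bar, dashed lines at 2-fold and genes past 2-fold in red and named. The medians of the other lists lie between −0.05 and 0.21, beside 0.71 for the 8 genes.

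Marker genes of other blood cells moved between the arrays too. All 5 neutrophil markers were well above background on array B and 4 on array A, and their summed scaled signal was 22.0 and 0.67. S100a9, which made up most of the sum on array B, differed by −5.90, Ngp by −4.07 and Mpo by −2.84, whereas Elane differed by 0.10. S100a8 passed the background mark on array B alone, with a bound of at least 180-fold there. The summed signal of the mast cell markers was 5.76 on array B and 0.14 on array A, with 2 and 1 of 5 well above background. Cpa3 differed by −5.44, and Fcer1a passed on array B alone, with a bound of at least 45.7-fold there. Ms4a2, Mcpt8 and Tpsb2 passed the background mark on neither array. Of 7 macrophage markers, 2 passed the background mark on array A and 3 did on array B, and their sums were 1.31 and 0.89. These markers did not move alike, as Adgre1 differed by 0.90 and Csf1r by −0.46. Lyz2 passed on array B alone, with a bound of at least 1.76-fold there. Cd14, Mrc1, Marco and Cd163 passed the background mark on neither array. Of 4 T cell markers, 2 and 3 were well above background, with sums of 0.65 and 0.63. The part of these cell type genes in the differences of the NF-κB and IκB genes was not tested.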

How the data were processed

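Total RNA of 1 sample per cell line was amplified, labelled with Cy3 and hybridised to arrays on 1 slide. Per the labels and scanner output, the authors deposited background-subtracted intensity per spot from Agilent Feature Extraction 9.5.1.1, with marks for spots well above background, saturated or outlying. The authors' table, also deposited, holds log2 values relative to the 75th percentile of an array (GeneSpring GX). Set against the scanner intensity, its values were not centred gene by gene, and its column medians were −5.44 (array A) and −5.20 (array B). Its labels are the likelier ones by the study's design, but its direction is not settled.

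Intensities of the 43020 non-control spots (39429 probes) were divided by their array's 75th percentile, after a floor of 1.0 that no spot needed, and log2 was taken. Spots were averaged per probe, and probes above the background mark on both arrays were averaged per gene. Where a gene passed the mark on 1 array alone, its fold is a bound, taken against the larger of its own dim signal and the dimmest passing probe of the other array. Names came from RefSeq by accession (26055 probes), symbol (3195) or older symbol (930), and otherwise from the file (9249). The 10 genes were taken by the file's names. Among 211 probes with 10 passing spots, the median SD between spots was 0.06 (array A) and 0.05 (array B). With 1 array per line, precision is limited by the number of arrays. The steps were tested on simulated data.

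Alternatives were other scalings, normexp (limma 3.58.1 in R 4.3.3, offset 50), other filters on dim probes, marked spots left out, other probe summaries, the authors' table, the file's names alone, and thresholds of 1.5-fold and 3-fold. The text names the 10 genes, pathway genes at least 2-fold apart or with such a bound, genes that define the pathway's steps, and Olr1. The genes and lists were chosen with earlier results of these data known. Python 3.11.15 with numpy 2.4.6, pandas 2.3.3 and matplotlib 3.10.9 was used.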

Additional observations from a re-analysis of the deposited data

How the results depend on the processing

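Relb, Nfkbia and Nfkbiz stayed at least 2-fold brighter on array A under all 11 scalings, corrections, filters, probe summaries and sources of values. Nfkbia and Nfkbiz have 1 probe each, so only the scalings, normexp and the authors' table could move them. The filters could not move Relb either. At a 3-fold threshold 1 of these genes, Nfkbiz, was left. The median of the measured NF-κB and IκB genes (0.71) was 0.999 with median scaling, 0.63 with the 75th percentile taken over probes passing on both arrays, 0.63 with normexp, 0.42 with unfiltered probes and 0.79 with the brightest probe. For the other pathway genes, the 9 on array A were 18 at 1.5-fold and 5 at 3-fold, and the 5 on array B were 14 and 1, while they were 13 and 2 with median scaling and 6 and 4 with normexp. Their median was 0.30 with median scaling and −0.072 with the 75th percentile over passing probes. Over all measured genes, the counts on arrays A and B were 1313 and 587 with median scaling, 1133 and 1876 with the looser filter, 1491 and 2777 with no filter, 1846 and 2603 at 1.5-fold and 156 and 333 at 3-fold, and 385 and 707 with normexp. The share of these genes on array A, 34.5%, was 69.1% with median scaling, 26.2% over passing probes and 41.7% with quantile scaling. Of 100 summary values compared, 76 stayed within the spread allowed, which is 1.5 times the value reported for counts and 0.08 for medians. Some could not move, as no spot of the 10 genes was marked as an outlier and these genes were always taken by the file's names. This share is therefore no measure of how firm the results are. For Rel and Bcl3 the signal lay below the lowest passing signal, so neither a difference nor its absence can be read. The cause of each shift was not tested. No paired analysis was possible because each line has 1 array.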

Other observations

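Map3k14 was read by 2 probes that differed in their values. The brighter, A_52_P364130, was at −0.19 on array A and −1.38 on array B, a difference of 1.19. The dimmer, A_55_P1988664, was at −3.27 and −3.41, a difference of 0.14. Tank, an adaptor of the IKK-related kinases, named after its values were seen, had differences of 1.09 and 0.74 at its probes.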
